A study of Rattus norvegicus with 8 samples.

Results

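A group of 7 genes of protein synthesis was followed in the medial prefrontal cortex of rats given an antidepressant when young. They are the initiation factor Eif4b, the translational GTPases Hbs1l and Gtpbp2, the leucyl-tRNA synthetase Lars1, the cytosolic ribosomal protein Rpl28 and the mitochondrial ribosomal proteins Mrpl15 and Mrpl17. Members were taken from the authors' deposited lists of changed probes by gene name or gene ID, which gave 7 probes, 1 for each gene, of 582 listed probes and 15207 probes on the array. All of them stand in the list of lower probes. The members were thus selected on the fold, p and detected flags of the same 8 arrays, and their direction and size are given as a description without a test.

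The JFLX group received fluoxetine, which blocks serotonin reuptake, at 10 mg/kg from postnatal day 28 to 48, and control rats were given only the 5% sucrose vehicle during that period. Tissue was the whole medial prefrontal cortex at 6 months of age, with 4 samples in each group, 1 Cy3-labelled Agilent array per sample and no genetic modification in any label. The sources used here do not state the strain, the sex or whether each sample came from its own animal, so errors measure the spread between these samples. The descriptions of control replicates 2 to 4 mention fluoxetine, whereas their titles and source names place them in the vehicle group, which was followed here. All 8 arrays shared 1 slide with the groups in separate position blocks, so position and treatment cannot be told apart. Names were available only for listed probes, and the other 14625 probes were not assigned to genes here.

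Translation starts when initiation factors load the small ribosomal subunit onto a capped mRNA, proceeds as aminoacyl-tRNAs made by the tRNA synthetases are delivered to the ribosome, and is watched by rescue GTPases that act on stalled ribosomes. Mitochondria hold a separate ribosome, built from nuclear-encoded proteins, that makes subunits of the respiratory chain. In neurons part of this machinery sits in dendrites and axons, where local synthesis of protein accompanies synaptic plasticity.

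The sequences of the probes define what was measured, and those that can be read as coding sequence are shown whole. Each probe has 60 bases. The 3 probes below each have 1 reading frame without a stop codon, whose codons are in capitals.
Hbs1l: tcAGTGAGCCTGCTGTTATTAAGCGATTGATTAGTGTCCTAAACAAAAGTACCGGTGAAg
Lars1: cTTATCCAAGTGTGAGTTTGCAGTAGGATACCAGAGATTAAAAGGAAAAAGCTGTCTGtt
Mrpl15: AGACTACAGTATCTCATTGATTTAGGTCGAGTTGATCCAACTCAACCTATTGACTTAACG
The deposited table places the Hbs1l probe at chr1:16733421-16733480 on the plus strand and the Mrpl15 probe at chr5:14934961-14935020 on the plus strand. It places the Lars1 probe at chr18:35482282-35482714 on the minus strand, a span of 433 bases for a probe of 60. As placed there, the probe does not lie in 1 unbroken block, and whether it crosses an exon junction was not tested. For these positions the sources used here name no genome build, and no exon annotation of that build was used.

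For the other 4 probes the first 30 bases are shown, with stop codons of any frame in capitals, because stop codons, several open frames or, for Rpl28, related copies left their coding position unassigned.
Eif4b: agTAActacaTGAaTAGagtggtcgtttct
Gtpbp2: ttctcaaggccacgTAAgttacctatctct
Rpl28: gaaagtatgttctattcatcTGAtgtgTAA
Mrpl17: attgcaactacacaagaatgctacagatcc
Over its whole length the Eif4b probe (chr7:140911823-140911882, plus strand) had a stop codon in all 3 frames, and so did the Gtpbp2 probe (chr9:10375714-10375773, minus strand). The Mrpl17 probe (chr1:163650926-163650985, minus strand) had none in any frame. The Rpl28 probe (chr1:67847229-67847288, minus strand) had 1 open frame. RefSeq holds 10 other entries whose symbol starts with Rpl28, of which 8 are pseudogenes, and whether this probe also matches them was not tested, so its values are uncertain as a measure of Rpl28.

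Eif4b, the cofactor that stimulates the mRNA-unwinding helicase eIF4A and a target of S6 kinase, had the largest difference among the 6 members detected in both groups. Its values were -0.68, -0.71, -0.87 and -1.04 on JFLX arrays 1 to 4, and -0.38, -0.05, 0.05 and 0.19 on control arrays 1 to 4. These are log2 values centred so that the control median of each probe is 0. The groups did not overlap, the highest JFLX array lying 0.30 below the lowest control array. Eif4b averaged -0.83 ± 0.16 in JFLX and -0.05 ± 0.25 in control (SD, n = 4 each). The difference of -0.78 ± 0.15 (SE of the limma fit, a linear model with a shared estimate of variance) puts JFLX at 58.3% of control. Among the 119 probes of the lower list that were flagged as detected on at least 3 JFLX arrays, Eif4b ranked 6 by the size of the difference.

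Across the array, 950 of 15207 probes, or 6.25%, passed an adjusted p of 0.05 in limma (Benjamini-Hochberg), and 54 of them, 0.355% of all probes, were lower in JFLX. Of the 7 members 1 passed, Eif4b. Nothing is read from that count, since the authors' fold and p on the same arrays selected the members. The call of Eif4b was lost under quantile normalization, with the replicate block and with trend and robust eBayes (limma adjusted p of 0.0971, 0.124 and 0.201). The quantile and trend fits used values centred on control for each probe, so they do not show what these steps would give on intensities. The Eif4b call was also lost without control replicates 2, 3 or 4 or without JFLX replicate 3 (limma adjusted p of 0.0507, 0.0663, 0.0565 and 0.0614). The Eif4b difference stayed between -0.89 and -0.70 over the 8 fits that each left out 1 array.

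**Figure D1:**
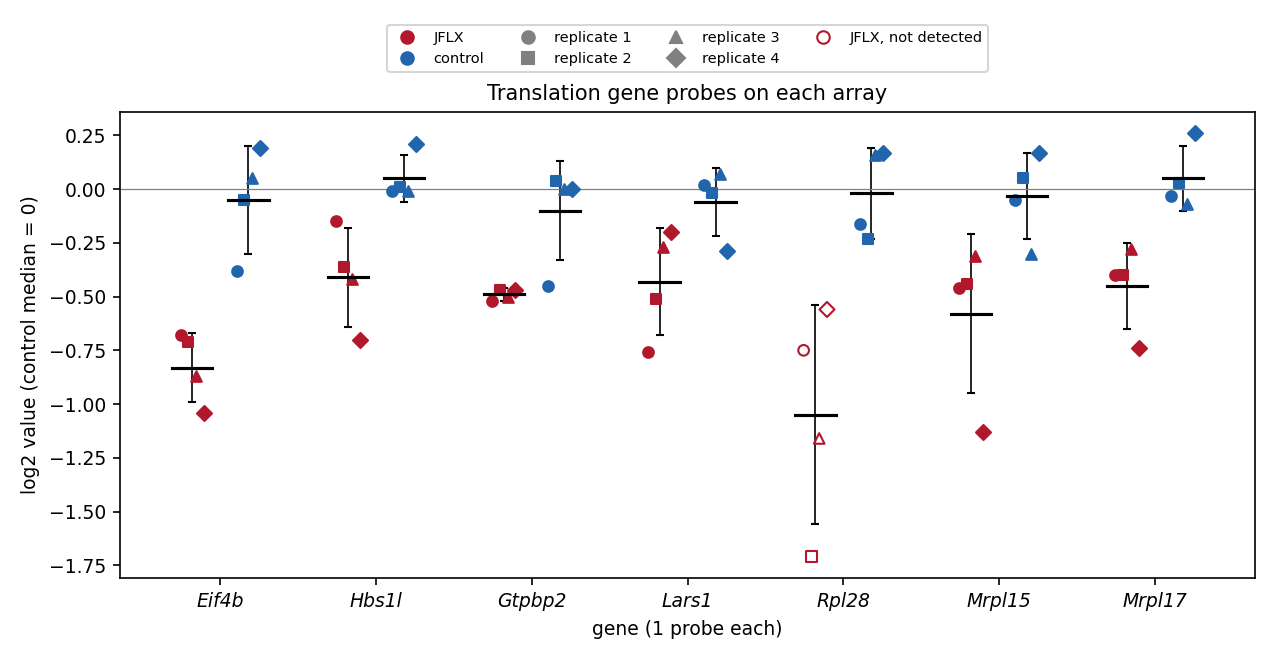
The log2 value of each member's probe (vertical axis, control median 0) on each of the 8 arrays, JFLX left of control for each gene. Symbols mark the replicate, black lines the mean, and error bars the SD of 4 arrays. All 4 JFLX arrays lay below all 4 control arrays for 6 of the 7 genes, Lars1 being the exception. The same held at 179 of 260 lower-list probes and 449 of 15207 probes (2.95%), and the members were listed from these same arrays. Open Rpl28 symbols mark JFLX arrays without a detected flag.

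Hbs1l, the GTPase that works with Pelota to free ribosomes stalled at the end of broken or blocked mRNAs, had values of -0.15, -0.36, -0.42 and -0.70 on JFLX arrays 1 to 4. Its control values were -0.01, 0.01, -0.01 and 0.21. The groups did not overlap, with a gap of 0.14. The JFLX arrays spanned a wide range, from replicate 1 close to the controls to replicate 4 far below them. The difference was -0.46 ± 0.14 (SE), or 72.8% of control.

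Gtpbp2, a relative of Hbs1l that in mice protects neurons when ribosomes pause for want of a brain tRNA, was the tightest of the members in the treated group. Its values were -0.52, -0.47, -0.50 and -0.47 on JFLX arrays 1 to 4, and -0.45, 0.04, 0.00 and 0.00 on the control arrays. Control replicate 1 stood 0.02 above the highest JFLX array, so this single control almost closed the gap. Gtpbp2 averaged -0.49 ± 0.03 in JFLX and -0.10 ± 0.23 in control (SD, n = 4 each). The difference was -0.39 ± 0.13 (SE) with all arrays and -0.50 without control replicate 1.

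Lars1, which charges leucine onto its tRNA in the cytosol and also acts as a leucine sensor for the growth kinase mTORC1, was the one member whose groups overlapped. It read -0.76, -0.51, -0.27 and -0.20 on JFLX arrays 1 to 4, and 0.02, -0.02, 0.07 and -0.29 on the control arrays. Control replicate 4 lay below JFLX replicates 3 and 4. The difference was -0.38 ± 0.15 (SE), or 76.9% of control, and without JFLX replicate 1, the lowest array, it was -0.27.

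Rpl28, a protein of the large cytosolic subunit, was flagged as detected on 4 of 4 control arrays and on 0 of 4 JFLX arrays. Its values were -0.75, -1.71, -1.16 and -0.56 on JFLX arrays 1 to 4, and -0.16, -0.23, 0.16 and 0.17 on the control arrays. The means were -1.05 ± 0.51 in JFLX and -0.02 ± 0.21 in control (SD, n = 4 each), and the groups did not overlap. Background-subtracted intensity ran from 4.85 to 9.75 in JFLX and from 14.7 to 18.2 in control. The lowest intensity of any listed probe flagged as detected on all 4 JFLX arrays was 9.06 to 19.1, depending on the array. The control signal did not exceed that floor after normalization, so no fold is given. JFLX replicate 2 was the lowest array.

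Mrpl15 and Mrpl17 are proteins of the large subunit of the mitochondrial ribosome. Mrpl15 read -0.46, -0.44, -0.31 and -1.13 on JFLX arrays 1 to 4, and -0.05, 0.05, -0.30 and 0.17 on the control arrays. Its groups were separated by only 0.01, between JFLX replicate 3 and control replicate 3. The difference was -0.55 ± 0.20 (SE), the largest SE among the members detected in both groups, and without JFLX replicate 4 it was -0.37.

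Mrpl17 was more even, with -0.40, -0.40, -0.28 and -0.74 on JFLX arrays 1 to 4, and -0.03, 0.03, -0.07 and 0.26 on the control arrays. A gap of 0.21 separated the groups. The difference was -0.50 ± 0.13 (SE), or 70.6% of control, and without JFLX replicate 4 it was -0.41.

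Groups did not overlap at 6 of the 7 members. Over the whole array JFLX lay wholly below control at 449 probes, or 2.95%, and in the lower list at 179 of 260. The median difference was -0.48 over the 6 members detected in both groups, the same to 2 decimals as over the 119 lower-list probes detected on at least 3 JFLX arrays, and 0.045 over all probes. JFLX replicate 4 was the lowest JFLX array at 4 members, Eif4b, Hbs1l, Mrpl15 and Mrpl17, and was the highest at Gtpbp2, Lars1 and Rpl28. In the lower list as a whole it was the lowest JFLX array at 114 of 260 probes. Control replicate 4 was the highest control array at 5 of the 7 members, all but Gtpbp2 and Lars1.

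The authors listed a probe as lower when its mean JFLX value was at most -0.4 with p at most 0.05 and a detected flag on at least 3 control arrays, per the read-me sheet. In the authors' deposited table Hbs1l stood closest to the first limit, with a mean JFLX value of -0.41, and Lars1 closest to the second, with p = 0.0468. The limit applies to the distance from the control median, not the control mean. Gtpbp2 and Lars1 are therefore listed although their differences between group means, -0.39 and -0.38, are smaller than the limit. No probe just outside the limits can be named as a translation gene here.

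Intensity before normalization between arrays separated fewer of the members. Eif4b ran from 49.9 to 113 in JFLX and from 139 to 204 in control, without overlap, and Rpl28 likewise did not overlap. These are 2 of the 7 members, against 133 of the 260 lower-list probes. The 2 sets differ in detection, since 117 of those 260 probes were detected on 0 JFLX arrays, and among the members only Rpl28. At the other 5 members the brightest JFLX array exceeded the dimmest control array. Mrpl17, for example, ran from 437 to 1130 in JFLX and from 1070 to 1530 in control. The difference in mean log2 intensity was larger than in the normalized values, at -0.96 for Eif4b, -0.73 for Mrpl15 and -0.56 for Lars1, since the deposited values raise JFLX relative to control by the same 0.18 at every listed probe.

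**Figure D2:**
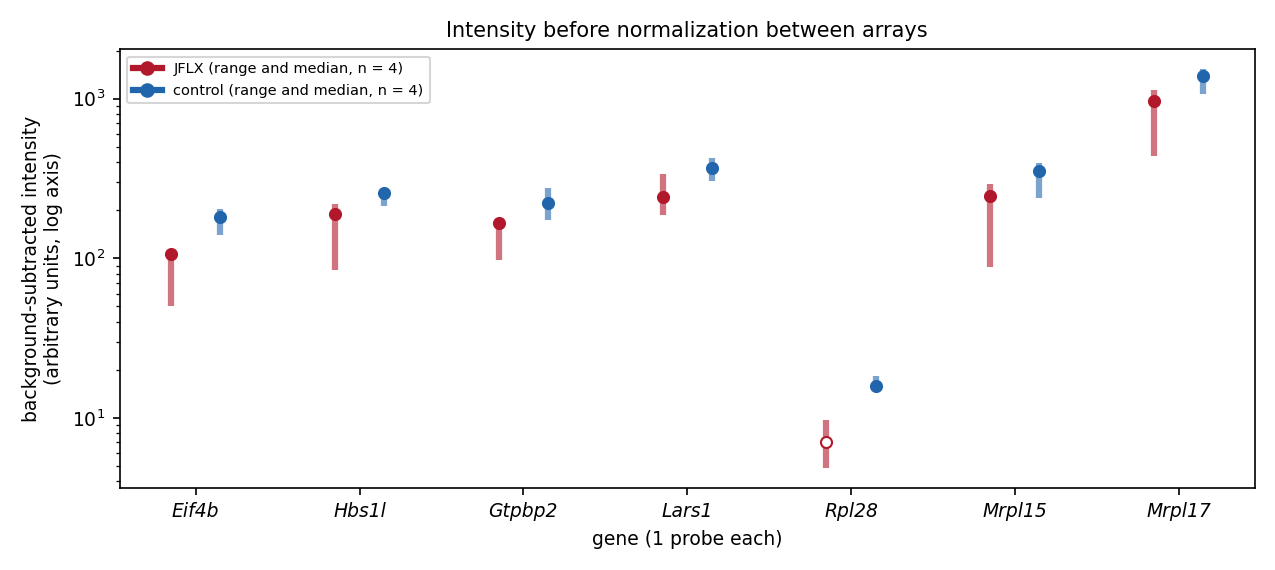
Background-subtracted intensity (arbitrary units, log axis) of each member's probe before normalization between arrays. Bars run from the lowest to the highest of 4 arrays and points are medians, JFLX left of control, and the open point marks Rpl28, which has no detected flag in JFLX. The bars of Eif4b and Rpl28 do not overlap (2 of 7, against 133 of 260 lower-list probes, of which 117 were detected on 0 JFLX arrays). Heights are not comparable between genes.

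Members resembled one another to different degrees. By the root mean square difference of their values over the 8 arrays, Hbs1l and Mrpl17 were the closest pair, at 0.11 on the log2 scale, and Mrpl15 and Mrpl17 followed at 0.17. Among 575 listed probes of other genes, the nearest was Pex2 for Eif4b (0.14), Gimap5 for Gtpbp2 (0.072), the synaptic vesicle protein Syp for Hbs1l (0.081), the neuronal transcription factor Neurod2 for Lars1 (0.085), Oscp1 for Mrpl15 (0.10) and Clstn2 for Mrpl17 (0.061). The nearest gene of these 6 members was in none of the translation lists. No distance is given for Rpl28, whose JFLX values were not above background, and its nearest probe by the same measure, that of the ribosome assembly protein Rrp1b, was likewise detected on 0 JFLX arrays. These distances describe values that the listing had already made alike.

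The wider pathway was counted with 6 lists of 363 genes in all: initiation factors, elongation and rescue factors, tRNA synthetases, cytosolic and mitochondrial ribosomal proteins, and ribosome assembly factors. Of these, 14 genes are listed by the authors, 13 lower and 1 higher in JFLX, and 2 passed the limma threshold in the lower direction, Eif4b and the assembly factor Abt1. By probes that is 2 of the 15 lower ones, beside 49 of the 260 in the whole lower list. For the remaining 349 genes no value can be assigned here. The background is a lower list of 260 probes and a higher list of 322. Because the genes enter by being listed, the split is a description.

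Among initiation factors, Eif2b4, the delta subunit of the exchange factor that recharges eIF2 with GTP, did not pass, with -0.73 ± 0.21 and -0.58 ± 0.16 at its spots. Both spots hold 1 sequence, so their distance of 0.15 measures repeatability on the same arrays. On a single array they differed by 0.01 to 0.46, the most on JFLX replicate 4 with -1.33 and -0.87. Over 25 listed sequences spotted more than once, spots of 1 sequence differed on an array by a median of 0.12, and their differences between groups by a median of 0.12. The 95th percentile on an array was 0.62 and the highest value 1.47, and differences between groups disagreed by up to 0.48, the size of the members' median difference. Each of the 7 members has 1 spot, so repeat spots cannot be averaged for them.

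Farsa, the catalytic subunit of the phenylalanyl-tRNA synthetase, stood at -0.47 ± 0.11 beside Lars1 at -0.38 ± 0.15 (SE). Its JFLX arrays ran from -0.57 to -0.41 and its control arrays from -0.25 to 0.17, without overlap. Mrps7, of the small mitochondrial subunit, stood at -0.41 ± 0.15 with overlapping groups and was detected on 3 JFLX arrays. Neither passed the limma threshold. With Mrpl15 and Mrpl17, 3 of 81 mitochondrial ribosomal proteins are listed, all lower.

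Fau, which encodes a ubiquitin-like protein fused to the small-subunit protein Rps30, was the single translation gene of the higher list. It read 0.48, 0.39, 0.25 and 0.55 on JFLX arrays 1 to 4, and 0.21, 0.02, -0.02 and -0.08 on the control arrays. The groups were separate, and the difference of 0.38 ± 0.11 (SE) did not pass in limma (adjusted p = 0.110). The cytosolic ribosomal proteins thus have 1 listed gene in each direction, Fau and Rpl28, of 85 in the list. Fau was detected on all 8 arrays, whereas the Rpl28 probe was detected on 0 JFLX arrays and is uncertain as a measure of Rpl28.

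Of 72 ribosome assembly factors 3 are listed, all lower. Abt1, whose yeast relative takes part in making the small subunit, had a difference of -1.01 ± 0.22 and passed. Utp4, of the particle that processes small-subunit RNA, stood at -0.60 ± 0.20 and -0.48 ± 0.17 at spots of 1 sequence and did not pass. Rrp1b was detected on 0 JFLX arrays and 4 control arrays, with values from -1.73 to -0.50 in JFLX and from -0.07 to 0.27 in control, the same flag pattern as Rpl28.

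**Figure D3:**
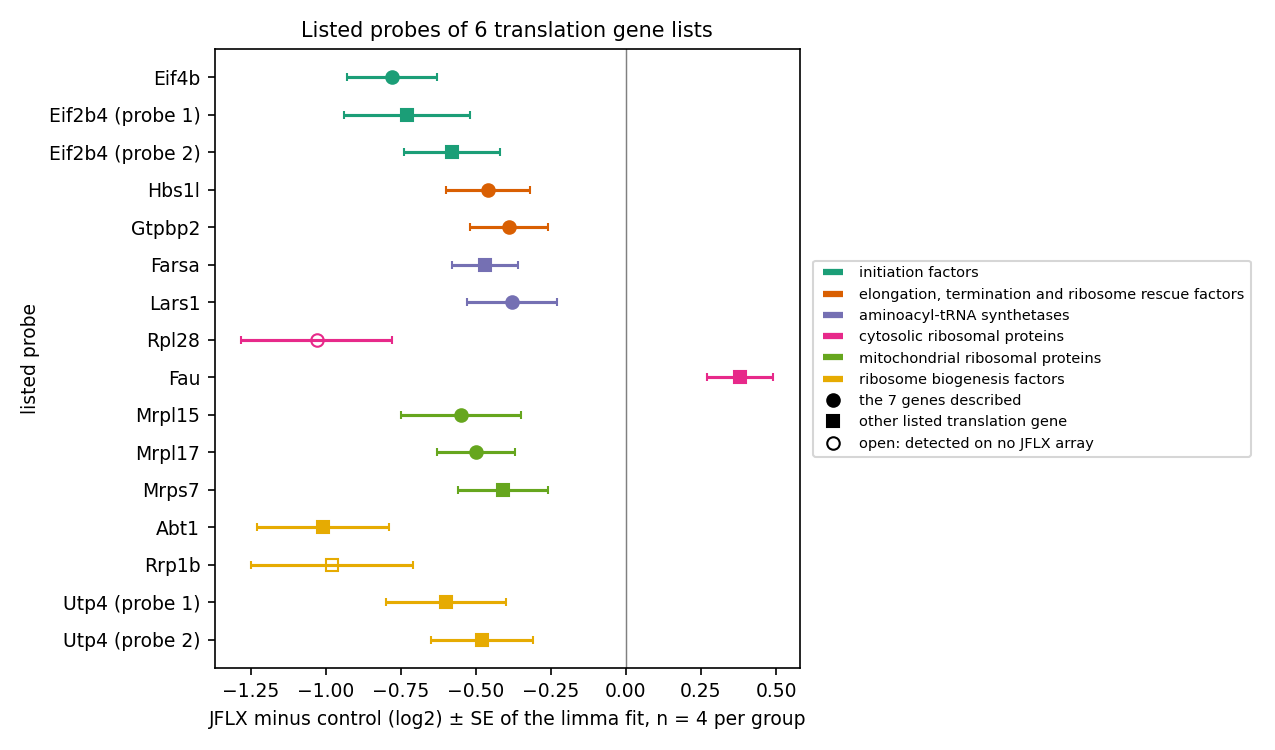
Difference between JFLX and control (log2, horizontal axis, bars ± SE of the limma fit, n = 4 per group) for the 16 listed probes of the 6 translation lists, coloured by list. Circles are the 7 genes described and squares the other listed genes. All probes but that of Fau lie left of 0, and the open symbols, Rpl28 and Rrp1b, are fitted values of probes detected on no JFLX array.

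The integrated stress response, which slows initiation through eIF2, had 3 listed genes of 20 and none past the limma threshold. Ppp1r15a, the phosphatase subunit that reverses it, stood at -0.44 ± 0.12 (SE) with groups that did not overlap. Psat1, an enzyme of serine synthesis under its control, stood at 0.49 ± 0.17 with overlapping groups. Atf3 was detected on 4 control and 0 JFLX arrays, and its groups overlapped.

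The annotation column of the authors' deposited table gives the process protein biosynthesis to 9 listed probes. Those are the 7 members in the lower list and 2 probes of the higher list. The higher ones are Ago1, an Argonaute of RNA silencing that the array design names as an initiation factor, and Ncoa5, a nuclear receptor coactivator. Eif2b4, Farsa, Mrps7, Fau and the assembly factors lack this annotation there, so it covers part of the listed translation genes.

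The start of the transcript is shown for members whose RefSeq start begins with pyrimidines, since vertebrate mRNAs of ribosomal proteins and several translation factors begin with C and an uninterrupted pyrimidine run through which mTORC1 controls their translation. The promoter table (RefSeq, GRCr8) held 5 of the 7 members. Each line gives 30 bases before and 30 from the annotated start, with the run in capitals.
Rpl28: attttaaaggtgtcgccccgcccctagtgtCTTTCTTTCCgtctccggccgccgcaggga
Hbs1l: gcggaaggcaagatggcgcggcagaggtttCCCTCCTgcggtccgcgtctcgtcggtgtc
Lars1: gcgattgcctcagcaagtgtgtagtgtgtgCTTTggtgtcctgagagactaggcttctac
These lie in GRCr8 at chr1:78083503-78083562 on the minus strand, chr1:17912121-17912180 on the plus strand and chr18:34506869-34506928 on the minus strand. The run was 10 bases in Rpl28, 7 in Hbs1l and 4 in Lars1, and the annotated starts of Gtpbp2 and Mrpl17 had none. The start used by the table is the outer end of the RefSeq gene for Rpl28 and Mrpl17 and lies 12 bases inside it for Hbs1l, 132 for Lars1 and 1836 for Gtpbp2, so other transcripts begin elsewhere. A C followed by pyrimidines to a run of at least 5 bases began 2 of the 5 members, 2.52% of the 21851 promoters of protein-coding genes and 35.8% of 67 promoters of cytosolic ribosomal proteins. A total RNA array does not measure how well an mRNA is translated.

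Motifs were searched on both strands in the same windows, 250 bases before to 50 after the start. GCATGCG, part of the NRF1 motif, was found in Hbs1l and Mrpl17 and in 3.99% of the promoters of protein-coding genes. CCGGAA, the core of many ETS sites, was found in Lars1 and in 17.7% of those promoters, and in 52.3% of 65 promoters of mitochondrial ribosomal proteins. TGATGNAA, the core that ATF4 binds, was found in 0 of the 5 members and 3.35% of protein-coding promoters, and the E-box CACGTG in 0 of the 5 and 7.02%. With 5 promoters these are descriptions only.

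In whole tissue, fewer cells of a type and less RNA per cell cannot be told apart. Of 12 neuron markers 2 are listed, both detected on all 8 arrays, Camk2a at 0.56 ± 0.19 and Neurod2 at -0.46 ± 0.15 (SE), and neither passed. The astrocyte enzyme Glul, 1 of 8 astrocyte markers, stood at -0.51 ± 0.11 and passed (limma adjusted p = 0.0362). Pecam1, the 1 listed of 9 endothelial and mural markers, stood at 0.68 ± 0.25 with overlapping groups and did not pass (limma adjusted p = 0.227). The platelet gene Ppbp, the 1 listed of 6 blood markers, was detected on 0 JFLX arrays and passed in the lower direction. Of 8 oligodendrocyte and 8 microglia markers 0 are listed. Levels of unlisted markers were not analysed here, and the part of cell composition in the members' values was not tested.

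Over all other settings the order of the members detected in both groups kept Eif4b at the far end, with differences from -0.97 to -0.70. Hbs1l ran from -0.65 to -0.36, Gtpbp2 from -0.58 to -0.34 and Lars1 from -0.57 to -0.27. Mrpl15 ran from -0.75 to -0.37 and Mrpl17 from -0.70 to -0.41, so the ranges of these genes cover one another and their order among themselves is not settled.

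**Figure D4:**
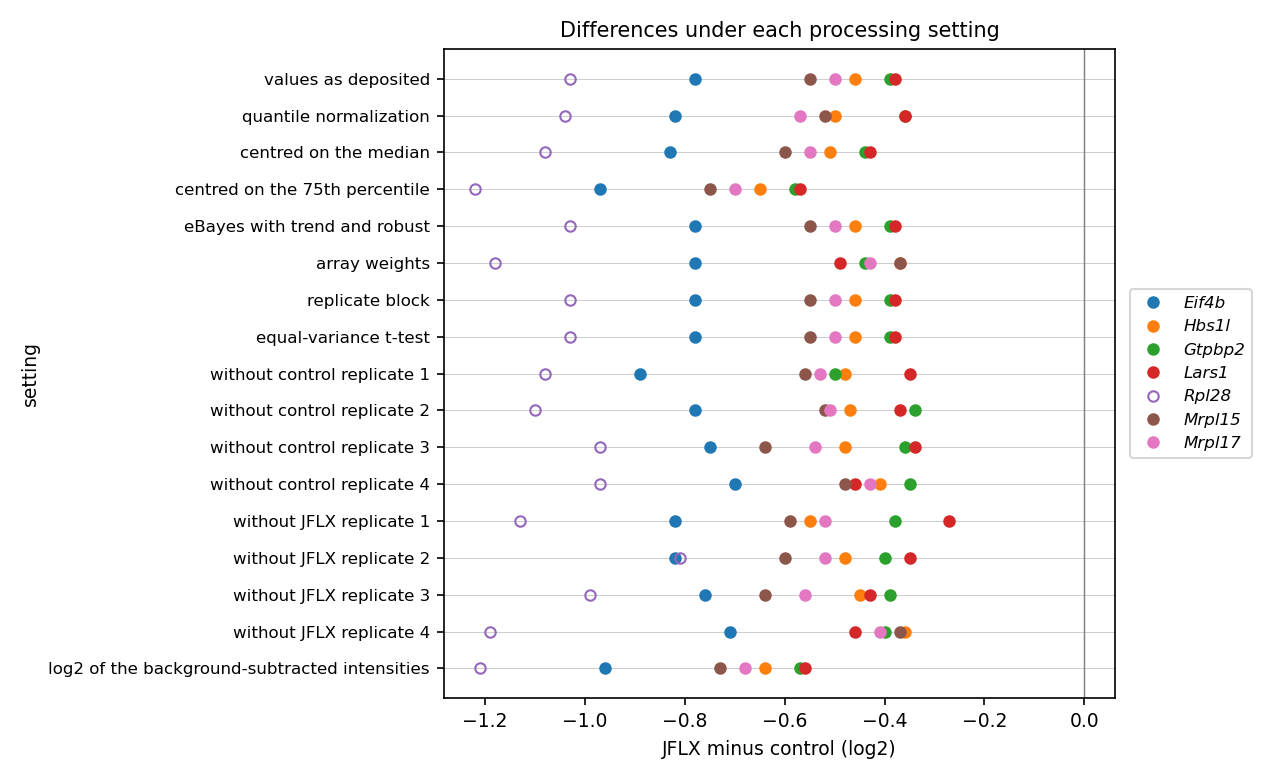
Difference between JFLX and control (log2, horizontal axis) for each member under the deposited values and each other setting (vertical axis). Colours are genes, and Rpl28 is open because it was detected on no JFLX array. The points of the 6 members detected in both groups lie between -0.97 and -0.27, and the Rpl28 points are fitted values that give no fold.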

How the data were processed

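Total RNA (500 ng) was labelled with Cy3 and hybridised to custom Agilent rat arrays, as the labels' protocols state. Values were deposited on the log2 scale with the control median of each probe at 0. The authors' lists give background-subtracted intensity, the number of arrays with a detected flag, group means and a p-value of an unnamed test, per the file headers and read-me sheet. The sources used here name neither the scanner software nor the normalization between arrays. In each list 16 columns with per-array folds and flags stayed unused, and intensity columns were assigned to groups only.

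Listed probes were named by gene ID through a RefSeq table of GRCr8 (551 of 582) or kept the file's name (31). Differences were fitted on all 15207 probes with limma 3.58.1 in R 4.3.3 (lmFit, eBayes, two-sided, Benjamini-Hochberg, threshold 0.05), after a test on simulated data. Python 3.11.15, pandas 2.3.3 and matplotlib 3.10.9 made the tables and plots. The number of arrays limits the precision. The bound for a probe with no detected flag used the lowest intensity of listed probes detected on all 4 arrays, a floor over listed probes only.

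The members and gene lists were chosen with earlier results of these data known. Named genes are the 7 members, the listed genes of the translation and marker lists, and for each member the listed gene with the smallest root mean square difference over the 8 arrays. Alternatives were other centring, quantile normalization, trend and robust eBayes, array weights, a replicate block, a plain equal-variance test, leaving out each array, and the intensities. All but the intensities started from the deposited values, centred on control for each probe. Filters on dim probes were not run, since the values are centred. Deviations of same-numbered arrays of the 2 groups had mixed correlations across probes, of -0.044, 0.395, 0.115 and -0.277 for numbers 1 to 4. The value for number 2 was the highest of any JFLX array with any control array. With the signs mixed, the numbers were not taken as pairs, and the replicate block was run as an alternative.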

Additional observations from a re-analysis of the deposited data

Results flagged for a closer look

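Dixon's test was run on 32 groups of 4 arrays, those of the 7 members and of the other listed translation probes. Its nominal rate of chance flags is about 1 in 20. That rate is only a guide here, since Eif2b4 and Utp4 each enter with 2 spots of 1 sequence and the authors' p selected the probes. The test set 2 values apart. Control replicate 1 was the lowest control array for Gtpbp2, at -0.45 against 0.00 to 0.04 on the other control arrays, a gap of 0.909 of the group's range. For Hbs1l the highest control array was replicate 4, at 0.21 against -0.01 to 0.01, a gap of 0.942 of the range, and without it the Hbs1l difference was -0.41 in place of -0.46. No explanation was tested for either value.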

How the results depend on the processing

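All alternatives were planned with earlier results known. All but the intensities started from values with each probe's control median at 0. Quantile normalization, both ways of centring and the trend thus acted on distances from control and do not stand for the same steps on intensities. Over 112 values of single members none changed direction, though trend and robust eBayes, the block and the plain test cannot change a difference, and 6 moved by more than the spread between replicates. Those were Gtpbp2, Hbs1l and Mrpl17, at -0.58, -0.65 and -0.70 with centring on the 75th percentile, which shifts all probes by -0.19, and at -0.57, -0.64 and -0.68 in the intensities. The median of the 7 differences, with the fitted Rpl28 value included, was -0.50, and these settings gave -0.70 and -0.68. Over the 6 members detected in both groups the median was -0.48 with the values as deposited. Of the 7 members 1 passed the limma threshold, against 2 with centring on the median, 4 with centring on the 75th percentile, 3 with array weights, and 0 with quantile normalization, trend and robust eBayes or the replicate block, where 5, 4 and 5 members had an unadjusted p of at most 0.05. Leaving out 1 array gave 0 to 2 members, and for Eif4b an adjusted p from 0.0111 to 0.0663, with 4 of 8 calls lost. Eif4b passed in 8 of the 15 other fits, Rpl28 in 4, Gtpbp2 in 3, Mrpl17 in 1, and Hbs1l, Lars1 and Mrpl15 in 0. Over those fits the share of all probes called lower ran from 0% to 1.45%. It was 0.454% with centring on the median, 1.45% with centring on the 75th percentile and 0.743% with array weights. Nothing is read from the member counts, since the same arrays selected the members. The array-wide 950 probes became 0 under quantile normalization of the control-centred values (limma, 1298 at an unadjusted p of at most 0.05). They became 764 with the replicate block, and 780 to 907 without 1 array. The split of the calls, 896 higher and 54 lower, was 682 and 221 with centring on the 75th percentile of the control-centred values. The 54 lower probes became 0 with trend and robust eBayes, 113 with array weights and 21 with the block. They became 19 without control replicate 3 and 23 without JFLX replicate 1. The trend was fitted on each probe's mean of the control-centred values, which follows the difference between groups and not the intensity. The cause of these changes in the counts was not tested. Each member has 1 spot, and the Rpl28 signal was near background.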
